A study of Rattus norvegicus with 6 samples.

Results

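The 9 genes described here encode ligands of the epidermal growth factor (EGF) family and the ERBB receptors that bind them. They were measured by RNA sequencing in RASMCs, which are primary vascular smooth muscle cells of the Sprague-Dawley rat aorta. A group of 3 libraries came from cells given citrullinated histone H3 plus double-stranded DNA (H3CIT+dsDNA), as found in extracellular traps. The control group, also 3 libraries, was given bovine serum albumin instead. The sources used here give no duration of the challenge and no genetic modification of the cells. For its culture work the study describes replicates as wells plated from a single rat. Whether this holds for these 6 libraries is not stated. If it does, the p-values below measure spread among such wells, which may be partly technical, and not among animals.

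The members were the rows of the count table under the symbols Ereg, Areg, Hbegf, Tgfa, Btc and Nrg1 (6 ligands) and Egfr, Erbb2 and Erbb3 (3 receptors), 9 of 22574 symbols in all. The family was chosen on its values in this same contrast of H3CIT+dsDNA against control. The differences, intervals and calls of its members are therefore a description and not a test of the family. Of the 9 members, 8 passed the filter on low counts and 1, Areg, did not. Erbb4 and the ligands Egf, Epgn, Nrg2, Nrg3 and Nrg4, which complete the family, are given with the other pathway genes.

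As background, EGF-family ligands are made as membrane-anchored precursors that metalloproteinases of the ADAM family cut free. A ligand brings ERBB receptors together in pairs, the paired kinases phosphorylate each other, and the signal runs through RAS, RAF and ERK and through PI3K and AKT. Receptors differ in what they bind: EGFR takes EGF, TGF-alpha, amphiregulin and others, ERBB3 takes neuregulins but has a weak kinase, and ERBB2 has no ligand of its own and serves as a partner. In vascular smooth muscle this system is known for growth and migration, and epiregulin and HB-EGF are known as smooth muscle mitogens.

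Library totals lay between 17573905 and 18742395 counts. Levels are given as CPM, counts per 1000000 counts in tested genes, scaled by TMM, and are not divided by transcript length, so an order of genes by CPM is not an order of transcript numbers. Over the whole table, the quasi-likelihood test of edgeR called 277 of 12591 genes at an adjusted p-value under 0.05. All 9 smooth muscle markers examined were detected in every library, Acta2 and Tagln among them. Their summed level was 6670 to 7165 CPM after H3CIT+dsDNA and 9321 to 10058 CPM in controls, with 4 of the 9 called lower and 1, Myocd, higher. Among markers of other cell types, Ptprc, which defines leukocytes, and Kdr, of endothelium, had at most 1 count in any library, and the epithelial keratins Krt5, Krt14, Krt18 and Krt19 were at 0 in all. Other markers of the same lists were detected in every library, with 1078 to 1180 counts of the keratin gene Krt8, 921 to 994 of the monocyte gene Cd14, 296 to 374 of Csf1r and 73 to 105 of the endothelial gene Cdh5. For rows at 0 in every library, here and below, it was not tested whether they can collect reads. The 7 leukocyte and macrophage markers summed to 72.2 to 74.5 CPM after H3CIT+dsDNA and 73.4 to 76.5 CPM in controls, and the 8 epithelial markers to 62.3 to 65.5 and 63.8 to 70.3 CPM. The 7 Schwann cell markers stayed under 2 CPM in sum in every library (0.970 to 1.94 CPM), the 6 fibroblast markers summed to 13.8 to 17.7 CPM, and the 7 endothelial markers to 8.44 to 8.91 CPM after H3CIT+dsDNA and 9.81 to 10.5 CPM in controls. The part of the smooth muscle and endothelial marker differences in the results that follow was not tested. In bulk RNA, fewer cells of a type and less RNA per cell cannot be told apart.

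Promoter windows of 300 bases, from 250 bases before to 50 bases after the start of the gene, were at hand for 6 of the 9 members from RefSeq on the assembly GRCr8, which is later than the build the counts were made on. Ereg, Nrg1 and Erbb3 had no entry. Windows are shown for Egfr, the called member with an entry, for Tgfa, a ligand whose groups overlapped, and for Areg, the neighbour of Ereg. Capitals mark matches, on either strand, to any of the motifs searched: AP-1 (TGANTCA), CRE (TGACGTCA), STAT (TTCNNNGAA), NF-kB (GGG, any 3 letters, TTCC), GC box (GGGCGG), ETS (CCGGAAG) and the ISRE core (GAAA, any 2 letters, GAAA). No 2 marked matches overlap in these windows. Each window is printed 5′ to 3′ on the strand of its gene.
Egfr, GRCr8 chr14:95378376-95378675, plus strand: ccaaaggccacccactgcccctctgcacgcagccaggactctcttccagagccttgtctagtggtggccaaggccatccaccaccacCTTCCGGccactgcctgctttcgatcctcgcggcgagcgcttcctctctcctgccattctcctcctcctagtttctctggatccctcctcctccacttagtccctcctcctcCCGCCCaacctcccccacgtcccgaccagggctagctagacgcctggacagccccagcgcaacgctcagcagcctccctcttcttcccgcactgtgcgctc
Tgfa, GRCr8 chr4:120175469-120175768, plus strand: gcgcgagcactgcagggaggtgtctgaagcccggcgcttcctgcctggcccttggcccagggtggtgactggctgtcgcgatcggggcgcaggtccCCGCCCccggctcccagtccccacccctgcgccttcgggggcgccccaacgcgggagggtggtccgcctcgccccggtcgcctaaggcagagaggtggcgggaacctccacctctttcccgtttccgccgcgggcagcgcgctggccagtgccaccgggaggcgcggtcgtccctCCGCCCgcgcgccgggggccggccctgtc
Areg, GRCr8 chr14:17265592-17265891, minus strand: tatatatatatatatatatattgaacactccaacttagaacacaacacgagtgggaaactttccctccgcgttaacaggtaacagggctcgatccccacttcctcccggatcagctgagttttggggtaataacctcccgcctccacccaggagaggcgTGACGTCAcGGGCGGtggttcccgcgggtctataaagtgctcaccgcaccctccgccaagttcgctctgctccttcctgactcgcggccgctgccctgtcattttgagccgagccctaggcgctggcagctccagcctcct

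In the window of Egfr the capitals at positions 88 to 94, counted from 1 at its 5′ end, are an ETS match and those at 200 to 205 a GC box, and the window of Tgfa holds a GC box at 97 to 102 and at 272 to 277. In the window of Areg they are a CRE match at 160 to 167 and a GC box at 169 to 174. The GC box was present in 33.1% of all 33469 promoter windows and in those of Areg, Btc, Egfr, Erbb2 and Tgfa among the members. The ETS letters were in 8.75% of all windows and in those of Egfr and Erbb2, and the CRE letters in 1.83% and in that of Areg. The NF-kB letters were in 5.37% of all windows and, among members, in that of Btc. The AP-1, STAT and ISRE letters, found in 7.33%, 8.87% and 3.92% of all windows, were in no member's window. A match describes the letters of these windows and is not a binding site.

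Of the 8 members tested, 2 were called, Ereg among the ligands and Egfr among the receptors, and both were higher after H3CIT+dsDNA. Of all genes tested 2.20% were called in either direction and 1.94% were called higher. The groups did not overlap in 3 of the 8 members, Ereg, Egfr and Hbegf, against 19.1% of all genes tested. Because the family was chosen on this contrast, nothing is read from these shares. Tgfa, Btc, Nrg1, Erbb2 and Erbb3 had overlapping groups.

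**Figure D1:**
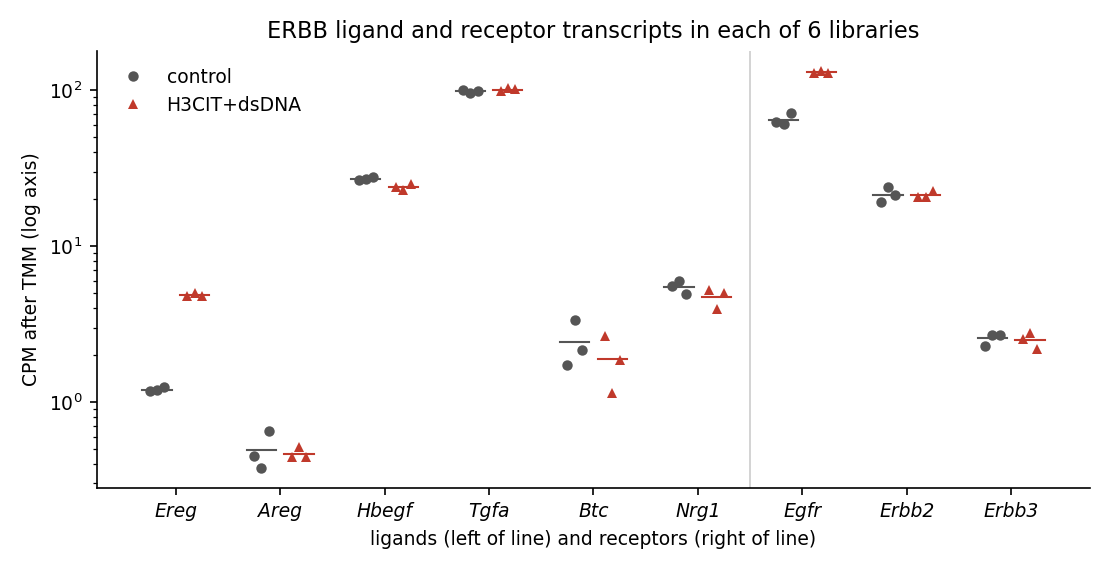
CPM after TMM on a log axis (vertical) of each of the 9 members (horizontal), with 1 point per library, circles for control and triangles for H3CIT+dsDNA, and a line at each mean (n = 3). Ereg and Egfr stand apart between the groups, at 4.86 against 1.20 CPM and 130.1 against 64.8 CPM, and Hbegf is separated in the other direction by a small gap.

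Ereg encodes epiregulin, a ligand of EGFR and ERBB4. Its counts were 87, 88 and 87 with H3CIT+dsDNA against 21, 22 and 23 for controls. Every treated library was high and every control library low. The levels were 4.86 ± 0.115 CPM (SD, n = 3) and 1.20 ± 0.0338 CPM (SD, n = 3), that is, 4.05-fold higher with a log2FC (the fitted log2 of the fold change, H3CIT+dsDNA over control) of 2.02 (standard error, SE, 0.19, 95% interval 1.60 to 2.44). Ereg passed the filter on low counts in both groups. By the log2FC it was number 39 of the 244 genes called higher. Counts of this size carry a counting error, the square root of the mean, of 9.35 after H3CIT+dsDNA and 4.69 in controls, whereas the libraries of a group differed by an SD of 0.577 and of 1 count. The 3 control counts are consecutive whole numbers. The variance of the counts was 0.00382 times their mean after H3CIT+dsDNA and 0.0455 times in controls. A limit of 0.05 on this ratio and a mean of at least 20 counts, each in both groups, were set after the counts of Ereg were seen. Of 11658 genes with such means, 15 were under the limit, 4 of the 256 called (1.56%) and 11 of the 11402 not called (0.0965%). Ereg is among the 4 by the way the limit was set. A low spread itself helps a gene to be called, so these shares are not independent of the calls. The ratio of Ereg after H3CIT+dsDNA lay well under that limit, so the other genes under it need not be as even as Ereg. The reason for this evenness was not tested.

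Egfr, the receptor of epiregulin and of most other EGF-family ligands, had counts of 2324, 2356 and 2334 with H3CIT+dsDNA against 1123, 1121 and 1320 for controls. Every treated library lay above the highest control library, which was control replicate 3. The levels were 130.1 ± 3.08 CPM and 64.8 ± 5.60 CPM (SD, n = 3 each), a log2FC of 1.01 (SE 0.06, 95% interval 0.88 to 1.13) or 2.01-fold. The treated counts had an SD of 16.4 where the counting error is 48.4, and the control counts an SD of 114 where it is 34.5. Egfr was number 119 of the 244 genes called higher.

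Hbegf encodes heparin-binding EGF-like growth factor. Its counts were 433, 403 and 452 with H3CIT+dsDNA against 476, 500 and 517 for controls. All treated libraries were below all controls, at 23.9 ± 1.02 against 27.2 ± 0.620 CPM (SD, n = 3 each). The log2FC was -0.19 (SE 0.06, 95% interval -0.32 to -0.05), and Hbegf was not called.

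Tgfa, the gene of TGF-alpha, had counts of 1801, 1809 and 1837 with H3CIT+dsDNA against 1800, 1772 and 1844 for controls. By counts the controls enclosed the treated libraries, and by CPM the groups overlapped. Its levels were 101.1 ± 1.67 and 98.6 ± 2.77 CPM (SD, n = 3 each), and the 95% interval of its log2FC of 0.04 ran from -0.05 to 0.12, the narrowest among the tested ligands.

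Btc, the gene of betacellulin, had counts of 48, 20 and 34 with H3CIT+dsDNA against 31, 62 and 40 for controls. The libraries of both groups were spread widely and interleaved, and the log2FC of -0.35 had an interval of -1.06 to 0.35. Nrg1, which encodes neuregulin 1, a ligand of ERBB3 and ERBB4, had counts of 95, 70 and 91 against 99, 111 and 91. Its groups overlapped, with treated replicate 2 the lowest library, and the log2FC was -0.21 with an interval of -0.56 to 0.14. Areg encodes amphiregulin, a ligand of EGFR. It had 8, 9 and 8 counts after H3CIT+dsDNA and 8, 7 and 12 in controls, in sum 25 against 27, and was not tested. With no filter on low counts its log2FC was -0.08 with an SE of 0.48, so a change of moderate size was not detectable at this depth.

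Erbb2, which encodes the receptor without a ligand of its own, had counts of 372, 364 and 408 with H3CIT+dsDNA against 341, 444 and 395 for controls. The controls held both the lowest and the highest library. Its levels were 21.2 ± 1.09 and 21.4 ± 2.41 CPM (SD, n = 3 each), a log2FC of -0.02 with a 95% interval of -0.20 to 0.17. Erbb3, the gene of the neuregulin receptor with a weak kinase, had counts of 46, 49 and 40 against 41, 50 and 50. Its groups overlapped as well, and the interval of its log2FC of -0.03 ran from -0.48 to 0.41.

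**Figure D2:**
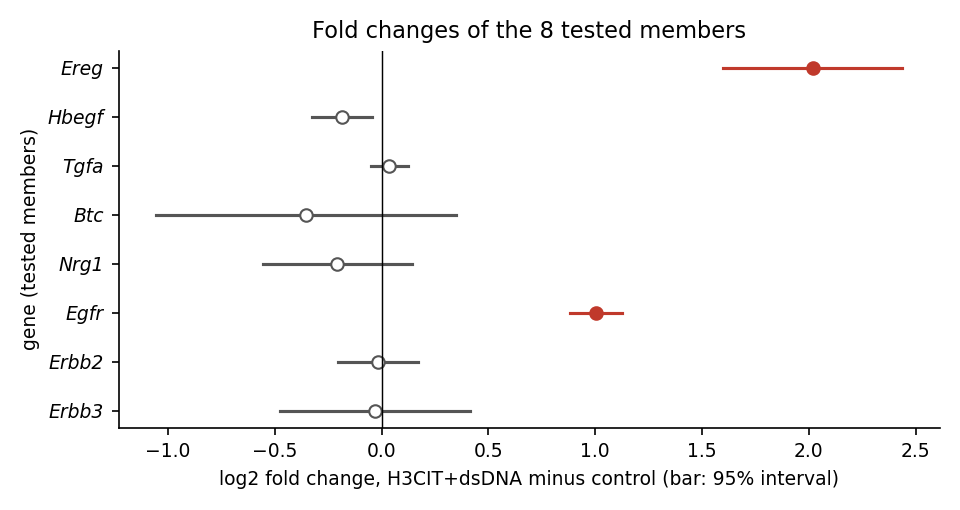
Log2FC (horizontal, H3CIT+dsDNA minus control) of the 8 tested members (vertical), with bars for the 95% interval from the edgeR fit and filled red points for called genes. Ereg at 2.02 and Egfr at 1.01 lie to the right of 0, the interval of Hbegf lies just to the left of it, and the other 5 intervals hold 0.

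Ratios of counts within a library are free of the scaling between libraries. Egfr had 6.25, 6.47 and 5.72 counts per count of Erbb2 after H3CIT+dsDNA and 3.29, 2.52 and 3.34 in controls. The groups did not overlap, and the mean ratio was 2.01 times that of controls. Per count of Erbb3, Egfr had 52.3 ± 5.36 counts after H3CIT+dsDNA and 25.4 ± 2.63 in controls (SD, n = 3 each). The counts of Ereg were 20.1%, 21.8% and 19.2% of those of Hbegf after H3CIT+dsDNA and 4.41%, 4.40% and 4.45% in controls. The mean was 4.61 times that of controls, a ratio enlarged by the lower level of Hbegf itself after H3CIT+dsDNA. Relative to Tgfa the counts of Ereg were 4.81% ± 0.0666 against 1.22% ± 0.0450 (SD, n = 3 each), or 3.95 times. The summed level of all 6 ligands was 136.1 to 138.2 CPM after H3CIT+dsDNA and 133.3 to 136.4 CPM in controls, ranges that overlap. Tgfa made up most of this sum. Without Ereg the other 5 ligands summed to 131.1 to 133.4 CPM and 132.1 to 134.9 CPM.

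**Figure D3:**
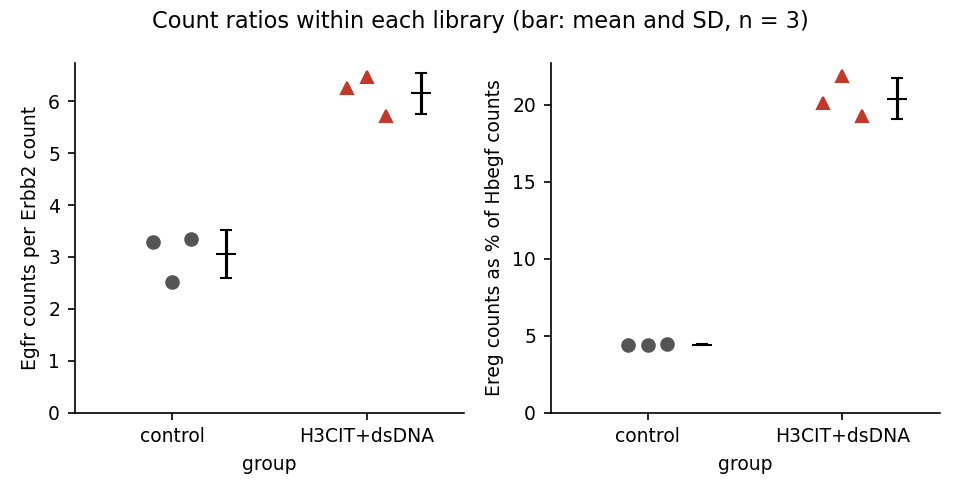
Counts of Egfr per count of Erbb2 (left) and counts of Ereg as a percentage of those of Hbegf (right) in each library of both groups (horizontal), with 1 point per library and a bar for the mean and SD (n = 3). Both ratios are higher in all 3 H3CIT+dsDNA libraries, with 6.15 ± 0.386 against 3.05 ± 0.458 on the left and 20.4% ± 1.32 against 4.42% ± 0.0254 on the right. Hbegf itself was lower after H3CIT+dsDNA, which enlarges the difference on the right.

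In the order of genes on the rat assembly GRCr8, Btc, Areg, Ereg and Epgn follow one another as protein-coding genes on chromosome 14, with Parm1 before Btc and Mthfd2l, Cxcl2 and Cxcl1 after Epgn. Ereg was called and none of its tested neighbours was. Mthfd2l, a mitochondrial folate enzyme, had counts of 142, 147 and 140 against 150, 184 and 146, a log2FC of -0.13 (SE 0.12, edgeR adjusted p = 0.667). The neutrophil chemokine genes Cxcl1 and Cxcl2 had log2FCs of -0.08 (edgeR adjusted p = 0.754) and -0.23 (adjusted p = 0.830). Epgn had at most 3 counts and Parm1 at most 8 in any library, and neither was tested. Egfr lies on the same chromosome but outside this run of genes.

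**Figure D4:**
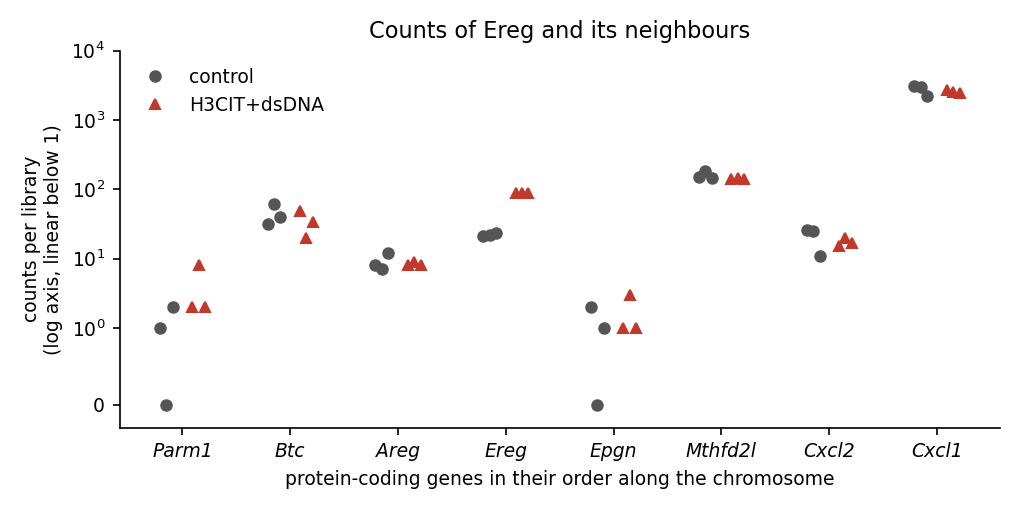
Counts per library (vertical, log axis, linear below 1) of 8 protein-coding genes in their order on chromosome 14 of GRCr8 (horizontal), circles for control and triangles for H3CIT+dsDNA. The groups of Ereg are apart at 21 to 23 and 87 to 88 counts, while those of Btc, Areg, Epgn, Mthfd2l, Cxcl2 and Cxcl1 overlap.

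Of the other genes of the family, Erbb4 and Egf had enough counts to be tested. Erbb4, a receptor of neuregulins and of epiregulin, had counts of 17, 15 and 14 with H3CIT+dsDNA against 12, 14 and 20 for controls, a log2FC of 0.03 (SE 0.32, edgeR adjusted p = 0.982). Egf, the founding ligand, had counts of 14, 1 and 1 against 11, 7 and 13, so treated replicate 1 was the highest library of all and the other treated libraries were the lowest (log2FC -0.93, SE 0.72, edgeR adjusted p = 0.610, interval -2.49 to 0.63). Without treated replicate 1 its log2FC was -3.34, and it was not called in that fit either. Epgn, Nrg2 and Nrg3, ligands too, had at most 3, 2 and 1 counts in any library. Nrg4 had no count in any library, and a count of 0 allows a level of up to 0.162 to 0.170 CPM, where 3 counts are taken as the limit and counting error alone is covered.

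The pathway genes reported here were 71, of which 65 were tested and 2 were called by edgeR, Braf higher and Akt1 lower. That is 1 of 65 in each direction, where 1.94% of all genes tested were called higher and 0.262% lower. The median log2FC was 0.01 over the 65 genes and -0.001 over all 12591. An unadjusted p-value under 0.05 in edgeR was given to 1755 of all genes tested, or 13.9%, and the counts at that level in each list are to be read against this share.

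None of the 9 genes of ligand shedding and processing was called by edgeR, by DESeq2 or by limma-voom, and 3 had an unadjusted p-value under 0.05 in edgeR. Their median log2FC was 0.05 and their values ran from -0.10 to 0.21. Adam12, a metalloproteinase that can release HB-EGF, had 213 ± 11.0 CPM after H3CIT+dsDNA and 198 ± 8.40 CPM in controls (SD, n = 3 each), a log2FC of 0.11 (edgeR adjusted p = 0.315). Furin, a convertase that matures ADAM proteases, was at -0.05 (adjusted p = 0.541) and Adam15 at 0.01 (adjusted p = 0.953). Adam17, the main sheddase of TGF-alpha and amphiregulin, was named after its values had been seen, with a log2FC of 0.08 and an adjusted p of 0.470 from edgeR.

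None of the 11 genes of receptor feedback and turnover was called by edgeR, by DESeq2 or by limma-voom, with 1 at an unadjusted p-value under 0.05 in edgeR and a median log2FC of 0.004. Lrig1, an inhibitor that promotes loss of ERBB receptors, had a log2FC of -0.001 (95% interval -0.11 to 0.11, edgeR adjusted p = 0.998). Rnf41, a ubiquitin ligase for ERBB3, was at 0.004 (adjusted p = 0.984) and Ptpn1, a phosphatase that acts on EGFR, at 0.001 (adjusted p = 0.998). In control replicate 3 Socs5, named after its values had been seen, had 211 counts against 844 and 975 in the other controls and 809 to 885 after H3CIT+dsDNA. Its log2FC was 0.34 with all libraries and -0.09 without that library, and it was called in neither fit.

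**Figure D5:**
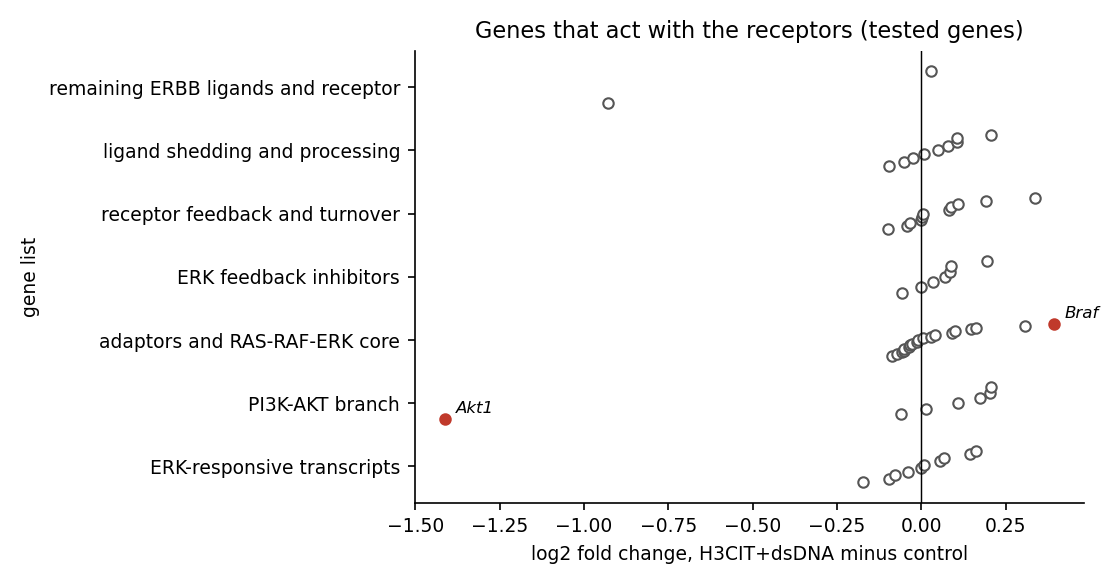
Log2FC (horizontal, H3CIT+dsDNA minus control) of 65 tested genes of 7 pathway lists (vertical), with 1 point per gene and filled red points for genes called by edgeR. Akt1 at -1.41 and Braf at 0.39 are the called genes, and the other points lie between -0.17 and 0.34 apart from Egf at -0.93.

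Transcripts that ERK signaling is known to induce made up a list of 10 genes, of which none was called by edgeR, DESeq2 or limma-voom, and 2 had an unadjusted p-value under 0.05 in edgeR. Those 2, named after their values had been seen, were of opposite sign, Etv5 with a log2FC of 0.14 and Fosl1 with -0.17. Ccnd1, the gene of cyclin D1, had counts of 7806, 7447 and 7516 with H3CIT+dsDNA against 7480, 7746 and 7879 for controls, a log2FC of 0.01 with a 95% interval of -0.06 to 0.08 (edgeR adjusted p = 0.952). Ier3, an immediate-early gene, was at -0.09 (adjusted p = 0.570) and Myc at 0.06 (adjusted p = 0.795). Of the 9 ERK feedback inhibitors 7 were tested and none was called by edgeR, DESeq2 or limma-voom, with 1 at an unadjusted p-value under 0.05 in edgeR. Dusp6, an ERK phosphatase whose transcript follows ERK activity, had a log2FC of 0.09 (95% interval -0.02 to 0.19, edgeR adjusted p = 0.472). The Sprouty genes Spry4 and Spry2 were at 0.09 (adjusted p = 0.657) and 0.03 (adjusted p = 0.908), while Spry1 was at 0 in every library.

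Among the 19 adaptors and kinases of the RAS, RAF and ERK cascade, Braf was called and 4 had an unadjusted p-value under 0.05 in edgeR. Braf had counts of 480, 455 and 552 with H3CIT+dsDNA against 356, 405 and 394 for controls, a log2FC of 0.39 (SE 0.08, edgeR adjusted p = 0.0167). All 3 treated libraries lay above all controls, but the call was lost without H3CIT+dsDNA replicate 3 (adjusted p = 0.0709) and without control replicate 1 (0.0902). The adjusted p ran from 0.00362 to 0.0902 over all alternatives. Mapk3, which encodes ERK1, was at -0.03 (95% interval -0.11 to 0.05, edgeR adjusted p = 0.750) and the kinase gene Src at -0.05 (adjusted p = 0.519).

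In the branch through PI3K and AKT, 1 of the 7 genes reported was called and 3 had an unadjusted p-value under 0.05 in edgeR. Akt1, the kinase downstream of PI3K, had counts of 3087, 3674 and 3638 against 9565, 9400 and 9243 and the largest fall in these lists, by 1.41 on the log2 scale (SE 0.06, edgeR adjusted p = 5.96e-09). Its paralog Akt2 had a log2FC of 0.01 (95% interval -0.06 to 0.09, edgeR adjusted p = 0.906), and Pik3r2, a regulatory subunit of PI3K, was at -0.06 (95% interval -0.15 to 0.03, edgeR adjusted p = 0.576). The median log2FC of the 7 genes was 0.11. Pik3r1 and Pik3ca, named after their values had been seen, were at 0.21 and 0.17. Their 95% intervals were 0.06 to 0.36 and 0.03 to 0.32, and neither was called (edgeR adjusted p = 0.192 and 0.267).

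The genes whose levels followed a member most closely were found by the Pearson correlation of log2 CPM over the 6 libraries. A constant was added to every CPM before the log. This was done for the ligand and the receptor with the highest CPM. For Egfr they were Pparg (r = 0.998), Il1b (r = 0.997) and Adipoq (r = 0.997), all called higher, with log2FCs of 1.34, 2.17 and 1.39. The constant weighs most on low genes such as Pparg, with 12 to 15 counts in controls. Where a gene differs between the groups the correlation mostly repeats that difference, and control replicate 3 was the highest control for Pparg, Il1b and Adipoq as for Egfr. For Tgfa they were Ddit4 (r = 0.985), Nat14 (r = 0.984) and Zfp260 (r = 0.967), none of them called. These are descriptions over 6 libraries of similar depth. Whether the libraries were prepared together is not stated in the sources used here.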

How the data were processed

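RNA of RASMCs was sequenced in 6 libraries, 3 per group, and samples were grouped by their titles. The authors aligned reads with TopHat to the rat build Rnor6.0, made per-gene totals in HTSeq and deposited these raw counts for 22574 symbols. The submitters' processing notes list TopHat2 2.1.1, Cufflinks 2.2.1 and Cuffdiff. The kit was stranded, but the strand setting of the counting is not given in the sources used here, so overlapping genes may share reads. Every row named a gene. All 6 columns were used.

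From the counts, genes were kept by filterByExpr with its default settings, scaled by TMM and tested with edgeR 4.0.16 (quasi-likelihood, two-sided) in R 4.3.3, with Benjamini-Hochberg adjustment over 12591 genes and a threshold of 0.05. The standard error is the coefficient divided by the square root of F, and the 95% interval uses the t distribution of the fit. CPM is computed over the counts of the genes tested. Counting error is the square root of a count, so low counts are imprecise.

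The members, the pathway and marker lists, the motifs and the tests were chosen with earlier results of these data known. A single gene of the pathway lists is not reported here and is left out of their counts. Named pathway genes are all of the rest of the family and, per list, called genes up to 5 by size of change, filled to 3 with the genes of highest CPM. Alternatives were other scalings (DESeq2-type, upper quartile, none), DESeq2 1.42.0, limma-voom 3.58.1, leaving out the filter, a minimum of 10 counts per library, robust dispersion, a replicate block and omission of single libraries. No 2 replicate libraries agreed within counting noise, with a smallest chi-square per gene of 3.38. Control replicate 3 gave the largest values, 6.98 against control replicate 1 and 5.48 against control replicate 2. The other pairs of the same group lay between 3.38 and 4.75.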

Additional observations from a re-analysis of the deposited data

How the results depend on the processing

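Ereg and Egfr were the members called in all 15 alternatives, with log2FC of 1.99 to 2.04 and 0.96 to 1.08. The alternatives refit the libraries on which the family was chosen, so these calls add no support. The log2FC of Btc ran from -0.68 when H3CIT+dsDNA replicate 1 was omitted to -0.05 when control replicate 2 was. The log2FC of Erbb2 and Erbb3 took both signs, between -0.09 and 0.07 and between -0.11 and 0.05. Of 299 values of 20 named pathway genes, 297 kept their side of the threshold, and the other 2 were of Braf. The 2 pathway genes called became 4 with robust dispersion estimates and ranged from 1 to 4 when single libraries were left out. The 1 came when H3CIT+dsDNA replicate 3 or control replicate 1 was omitted, where Braf lost its call, and the 4 without control replicate 3, where Adam10 (adjusted p = 0.0385 from edgeR) and Rasa1 (0.0392) were added. The cause was not tested. Both were named after their values had been seen, and in the reported fit they stood at 0.0903 and 0.117.

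The 277 genes called over the whole table ranged from 212 to 376 with all libraries and from 164 to 357 with each left out. There were 164 when H3CIT+dsDNA replicate 1 was omitted, 184 when control replicate 1 was and 357 when control replicate 3 was. The cause was not tested. With a replicate block 212 were called, Ereg and Egfr among them. No pairing by replicate number was seen, with deviations of same-numbered libraries correlated at -0.0514, -0.00304 and 0.0380. The labels do not say whether same-numbered wells were handled together. Depth limits Areg, with at most 12 counts in any library, and the family's genes with at most 3.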
